A study of Mus musculus with 12 samples.

Results

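The transcripts followed here are those of 9 genes that decide whether a hepatocyte makes glucose from pyruvate or burns and stores it: Pck1, G6pc, Fbp1, Pcx, Got1, Slc37a4, Ppargc1a, Pklr and Pdk4. They were picked by name for their roles, with earlier results of these data known, and they are 9 of the 24340 gene entries in the expression table. Each of the 9 was found once, and all 9 passed the filter on low values that left 10031 genes to test. The table holds liver RNA of C57BL/6 mice in 12 libraries, 3 in each of 4 groups. Mice of the PPA_6h and PPA_0h groups had received 3-phenylpropionic acid (PPA), which the gut flora makes from phenylalanine, in their drinking water for 4 weeks. Mice of the CTL_6h and CTL_0h groups had drunk plain water. All groups had been fasted for 16 h and belong to an experiment with the painkiller acetaminophen (APAP), which is toxic to hepatocytes in overdose, given into the abdominal cavity at 300 mg/kg. Livers were taken 6 h after it in PPA_6h and CTL_6h mice and at 0 h in PPA_0h and CTL_0h mice, and the labels do not say whether the 0 h mice had been injected. No group without APAP was sampled at 6 h. APAP therefore cannot be told apart from the 6 h that passed after the fast, including any feeding in them. The labels give no sex or age and do not state that each library is a separate mouse, so the p-values measure the spread between libraries, which may be technical in part.

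Gluconeogenesis is the route by which a fasting liver turns lactate, alanine, other amino acids and glycerol into glucose for the blood. Pyruvate enters mitochondria, becomes oxaloacetate, leaves as malate or aspartate, and is turned into phosphoenolpyruvate and then, by the reversed steps of glycolysis and a few bypass enzymes, into glucose-6-phosphate and free glucose. Glucagon, acting through cAMP, and glucocorticoids raise the transcription of several of these enzymes, and insulin represses it. Pyruvate kinase and pyruvate dehydrogenase draw carbon the other way, and pyruvate dehydrogenase kinases hold the second of them back. The hepatocytes around the portal vein carry most of this activity, while APAP injures mainly those around the central vein.

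The promoters of 3 of these genes are shown because Pck1 and G6pc fell 6 h after APAP in PPA and in control mice, because Slc37a4 fell in PPA mice, a call that rested on single libraries, and because short motifs tied in textbooks to hormone control can be read in them. All 9 genes matched entries of the RefSeq promoter table for GRCm38.p6, which runs from 250 bases before to 50 bases after each transcription start. Capitals mark the 6 letters ACGTCA, the core of a cAMP response element, in Pck1, and its reverse complement TGACGT in Slc37a4. In G6pc they mark the 7 letters TNTTTTG, with N any base, a loose form taken here for an insulin response motif. The Pck1 window is chr2:173152823-173153122 on the plus strand, that of G6pc is chr11:101367466-101367765 on the plus strand, and that of the first of 3 Slc37a4 entries is chr9:44396696-44396995 on the plus strand.
Pck1 promoter: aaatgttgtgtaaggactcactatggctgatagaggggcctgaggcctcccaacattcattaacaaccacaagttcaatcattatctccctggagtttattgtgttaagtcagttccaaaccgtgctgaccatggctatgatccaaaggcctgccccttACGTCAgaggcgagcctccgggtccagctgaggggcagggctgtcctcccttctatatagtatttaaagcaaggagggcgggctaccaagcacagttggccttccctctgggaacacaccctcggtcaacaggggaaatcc
G6pc promoter: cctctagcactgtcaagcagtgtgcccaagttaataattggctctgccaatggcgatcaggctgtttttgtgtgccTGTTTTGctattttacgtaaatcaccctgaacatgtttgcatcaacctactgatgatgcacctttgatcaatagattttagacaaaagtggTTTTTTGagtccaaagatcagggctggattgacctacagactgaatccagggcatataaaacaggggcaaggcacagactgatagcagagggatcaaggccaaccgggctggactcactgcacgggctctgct
Slc37a4 promoter: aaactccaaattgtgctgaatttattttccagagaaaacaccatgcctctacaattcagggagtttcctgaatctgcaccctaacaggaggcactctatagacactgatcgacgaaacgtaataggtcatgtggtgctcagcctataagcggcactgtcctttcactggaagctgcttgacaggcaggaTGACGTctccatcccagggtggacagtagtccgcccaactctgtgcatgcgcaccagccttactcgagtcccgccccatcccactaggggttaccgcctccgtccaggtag

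Both strands were searched for 5 motifs in the windows of all 9 genes. ACGTCA was present in Pck1, 91 bases before the start, in Ppargc1a, 50 bases before it, and in the first 2 of the 3 Slc37a4 entries. It was present in 7.51% of the 32851 promoters of the table. TNTTTTG was present in 18.6% of all promoters and, among the 9 genes, in G6pc only, at 174 and at 83 bases before the start. The forkhead motif TGTTTAC (3.65% of all promoters), the AP-1 motif TGANTCA (7.81%) and the glucocorticoid receptor core TGTTCT (19.0%) were in none of the windows of the 9 genes. Only the letters given were searched, so other forms of these motifs may be present. The matches in the 2 Slc37a4 entries are the same letters of the genome, read in windows that overlap, and no match overlapped one of another motif. These matches describe letters in the reference sequence and say nothing of whether a factor was bound.

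The unit is FPKM as deposited, a fragment number scaled by transcript length and by library total, so levels can be compared between genes where the estimates hold. Not all do: Alb and Apoe were listed at 0 in whole groups. Gapdh, of the reversible steps of glycolysis, was at 0.191 to 50.8 FPKM in PPA_6h livers and at most 1.13 FPKM in the other groups. It was not among the genes tested. FPKM summed to between 593025 and 769104 per library. The depth was estimated from the steps of low FPKM values at 6940000 to 10070000 fragments for livers of 6 h and 3210000 to 5020000 fragments for livers of 0 h, so time after APAP and depth cannot be told apart. The liver label held: all 9 hepatocyte markers found in the table were present in every library, from Apob at 132 to 219 FPKM to Apoa1 at 16080 to 28954 FPKM. One library stood apart: the 15 skeletal muscle markers summed to 158 FPKM in CTL_6h replicate 4 and to at most 1.78 FPKM in any other library. In bulk liver RNA, fewer cells of a type and less RNA per cell cannot be told apart. Markers of hepatocytes around the central vein were lower 6 h after APAP, 8 of 9 of them in PPA mice with a median log2 change of -2.55 and 8 of 9 in control mice with a median of -1.53. Of all tested genes, 13.2% were called lower with time in PPA mice and 11.7% in control mice. Of the 9 markers of hepatocytes around the portal vein, 1 was higher at 6 h in PPA mice and 3 in control mice, and none was lower in either. The shares of all genes called higher were 15% in PPA mice and 15.2% in control mice. The part of these shifts in the values below was not tested.

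Pck1 encodes the cytosolic phosphoenolpyruvate carboxykinase, which turns oxaloacetate into phosphoenolpyruvate and is often taken as the controlling step of the pathway. It lies on chr2:173153048-173159273, plus strand, and was the most abundant of the 9 transcripts in 0 h livers. It was at 769, 786 and 652 FPKM in PPA_6h livers, 1045, 1246 and 1066 FPKM in CTL_6h livers, 2027, 1746 and 1826 FPKM in PPA_0h livers and 1601, 1783 and 1755 FPKM in CTL_0h livers. Every 6 h library was below every 0 h library, and within the 6 h livers every PPA library was below every control library. The transcript fell to 39.4% of its 0 h mean in PPA mice, a log2 change of -1.34 ± 0.13 (SE), and to 65.3% in control mice, a log2 change of -0.62 ± 0.13. Both changes passed the test, with adjusted p-values of 1.63e-05 and 0.0043 (limma, two-sided, Benjamini-Hochberg over all tested genes, as for every adjusted p here). Throughout, changes are on the log2(FPKM + 1) scale, SE is their standard error, and a gene is said to rise or fall where the adjusted p is under 0.05. At 6 h the PPA livers averaged 736 ± 72.8 FPKM and the control livers 1119 ± 110 FPKM (SD, n = 3 each). That difference of -0.61 ± 0.13 on the log2 scale did not pass over all genes, with an adjusted p of 0.108 from limma. Over 24 alternative analyses the adjusted p of this difference ranged from 0.00109 to 0.418 and was under 0.05 in 3 of them. That p was 0.00109 with sample weights, a fit that did not converge, and 0.00582 with weights fitted gene by gene (limma). It was 0.0305 without CTL_6h replicate 3 and 0.354 without CTL_6h replicate 2.

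G6pc encodes the catalytic subunit of glucose-6-phosphatase, which releases free glucose in the last step, inside the endoplasmic reticulum. It lies on chr11:101367561-101377903, plus strand. It was at 75.1, 38.6 and 73.4 FPKM in PPA_6h livers, 111, 126 and 106 FPKM in CTL_6h livers, 266, 163 and 243 FPKM in PPA_0h livers and 211, 258 and 227 FPKM in CTL_0h livers. The order of the groups was that of Pck1 at 6 h, with PPA livers lowest and no overlap with control livers, while the 2 groups of 0 h livers overlapped. G6pc fell to 27.9% of its 0 h mean in PPA mice, a log2 change of -1.86 ± 0.24 (adjusted p = 0.00015, limma), and to 49.2% in control mice, a log2 change of -1.02 ± 0.24 (adjusted p = 0.0075, limma). Its 6.89-fold span between the highest and the lowest library was the widest of the 9 genes. Between PPA and control livers at 6 h the log2 difference was -0.92 ± 0.24, which did not pass (adjusted p = 0.144, limma). Over 24 alternative analyses the adjusted p of this difference ranged from 0.00612 to 0.483 and was under 0.05 in 3 of them. That p was 0.00612 with the sample weights that did not converge, and 0.0208 with weights fitted gene by gene (limma). It was 0.0405 without PPA_6h replicate 5. Without PPA_6h replicate 2 it was 0.483, and the log2 difference was -0.61.

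Slc37a4 encodes the transporter that carries glucose-6-phosphate into the endoplasmic reticulum, where the phosphatase acts. It lies on chr9:44396852-44402968, plus strand. It was at 107, 85.8 and 50.7 FPKM in PPA_6h livers, 74.5, 86.3 and 67.7 FPKM in CTL_6h livers, 147, 122 and 127 FPKM in PPA_0h livers and 72.8, 70.1 and 111 FPKM in CTL_0h livers. The PPA_0h libraries stood above all others, and the 3 remaining groups overlapped. Slc37a4 fell with time in PPA mice by 0.76 ± 0.24 on the log2 scale (adjusted p = 0.0319, limma), against a log2 change of -0.12 ± 0.24 in control mice that did not pass (adjusted p = 0.739, limma). The fall in PPA mice rested on single libraries. Its adjusted p was 0.117 without PPA_6h replicate 5, where the log2 change was -0.46, and 0.0997, 0.0578 and 0.0695 without PPA_0h replicates 2, 4 and 5. It was also above 0.05 with no filter on low values (0.0692), with quantile normalization (0.0647) and with sample weights (0.0621). At 0 h the PPA livers averaged 132 ± 13.3 FPKM and the control livers 84.6 ± 22.7 FPKM (SD, n = 3 each), a log2 difference of 0.66 ± 0.24 that did not pass (adjusted p = 0.651, limma).

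**Figure D1:**
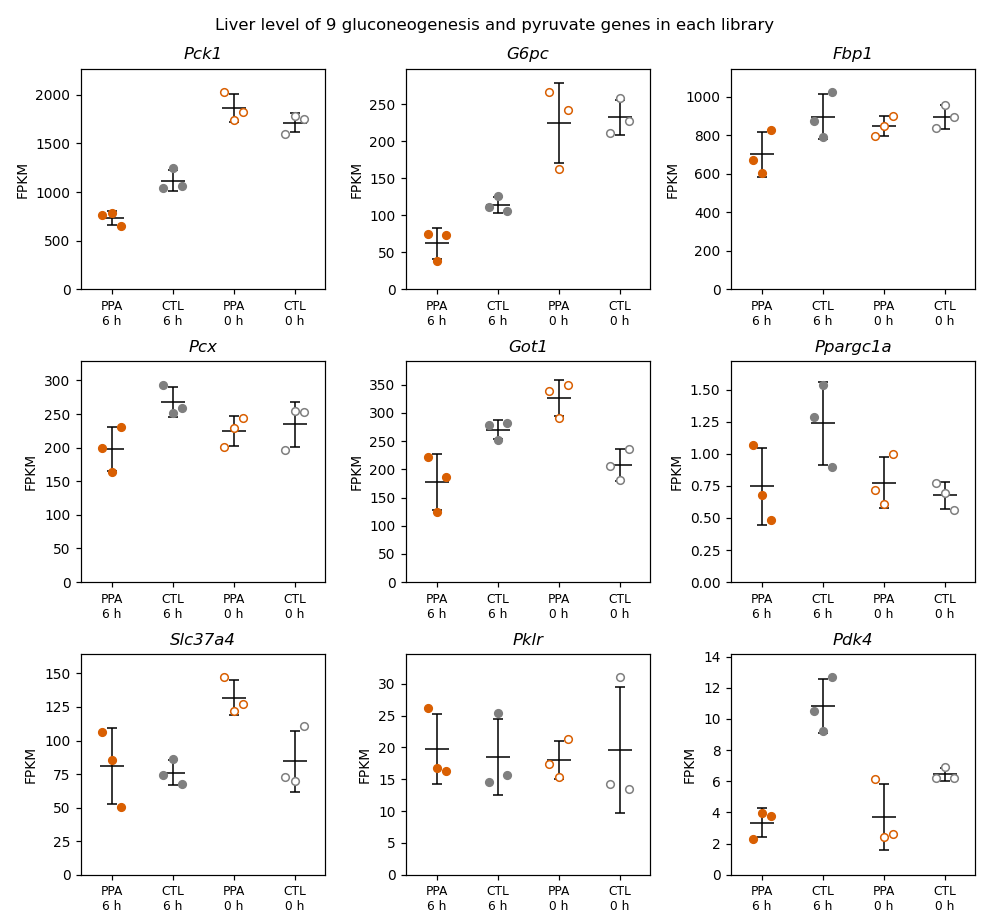
FPKM of each of the 9 genes in every library (points) with the group mean and SD (n = 3), 1 panel per gene, each vertical axis starting at 0, groups from left to right PPA 6 h, CTL 6 h, PPA 0 h and CTL 0 h. Pck1 and G6pc are lower in all 6 h libraries than in all 0 h libraries, and Pdk4 is highest in the 3 CTL_6h libraries, at 9.25 to 12.7 FPKM.

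Fbp1, the gene of fructose bisphosphatase, which bypasses phosphofructokinase in the direction of glucose, had the narrowest range of the 9. It lies on chr13:62864753-62888282, minus strand. It was at 673, 602 and 827 FPKM in PPA_6h livers, 872, 791 and 1022 FPKM in CTL_6h livers, 797, 848 and 900.0 FPKM in PPA_0h livers and 836, 956 and 892 FPKM in CTL_0h livers. The groups overlapped in all 4 comparisons of 2 groups, and the highest library was 1.699 times the lowest. Group means were 701 ± 115 FPKM in PPA_6h, 895 ± 117 FPKM in CTL_6h, 848 ± 51.5 FPKM in PPA_0h and 895 ± 60.2 FPKM in CTL_0h livers (SD, n = 3 each). No comparison passed the test. The 95% interval of the change with time ran from -0.60 to 0.03 on the log2 scale in PPA mice and from -0.32 to 0.31 in control mice.

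Pcx encodes pyruvate carboxylase, the mitochondrial enzyme that makes oxaloacetate from pyruvate and so opens the pathway. It lies on chr19:4510472-4621752, plus strand. It was at 199, 164 and 231 FPKM in PPA_6h livers, 294, 252 and 258 FPKM in CTL_6h livers, 201, 230.0 and 245 FPKM in PPA_0h livers and 196, 255 and 253 FPKM in CTL_0h livers. At 6 h all 3 PPA libraries were below all 3 control libraries, and in the other 3 comparisons the groups overlapped. The difference at 6 h was -0.45 ± 0.15 on the log2 scale and did not pass (adjusted p = 0.212, limma). With time, the log2 change of Pcx was -0.19 ± 0.15 in PPA mice and 0.20 ± 0.15 in control mice, and neither passed.

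Got1 encodes the cytosolic aspartate aminotransferase, which turns aspartate that has left mitochondria back into oxaloacetate, the substrate of Pck1. It lies on chr19:43499752-43524605, minus strand. It was at 222, 125 and 186 FPKM in PPA_6h livers, 278, 252 and 281 FPKM in CTL_6h livers, 339.7, 290.3 and 349.8 FPKM in PPA_0h livers and 206, 180.4 and 236 FPKM in CTL_0h livers. No 2 groups set against each other overlapped. PPA livers were the lower ones at 6 h and the higher ones at 0 h. Got1 fell with time in PPA mice by 0.91 ± 0.18 on the log2 scale (adjusted p = 0.00304, limma), to 54.4% of the 0 h mean, while in control mice its log2 change was 0.39 ± 0.18 and did not pass (adjusted p = 0.137, limma). The difference between these 2 changes, the interaction of PPA and time, was -1.30 ± 0.26, and it did not pass over all genes (adjusted p = 0.251, limma). Being lower at 6 h than at 0 h in PPA mice and higher in control mice, both without overlap, was seen in 0.189% of all genes, and being lower at 6 h and higher at 0 h in PPA than in control livers without overlap in 0.488%. Got2, the mitochondrial aspartate aminotransferase, was at 146 ± 13.5, 170 ± 10.98, 182 ± 5.43 and 182 ± 12.7 FPKM in PPA_6h, CTL_6h, PPA_0h and CTL_0h livers (SD, n = 3 each). Within a library, Got1 over Got2 was 1.48, 0.958 and 1.19 in PPA_6h livers, 1.53, 1.57 and 1.68 in CTL_6h livers, 1.92, 1.55 and 1.92 in PPA_0h livers and 1.23, 0.934 and 1.27 in CTL_0h livers. As with Got1 itself, PPA livers were below control livers at 6 h and above them at 0 h without overlap.

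Ppargc1a encodes PGC-1 alpha, a coactivator that fasting induces in liver and that raises the transcription of Pck1 and G6pc. It lies on chr5:51454250-51567726, minus strand, and was the least abundant of the 9. It was at 1.07, 0.680 and 0.486 FPKM in PPA_6h livers, 1.29, 1.54 and 0.895 FPKM in CTL_6h livers, 0.718, 0.609 and 0.9996 FPKM in PPA_0h livers and 0.770, 0.697 and 0.565 FPKM in CTL_0h livers. In control mice the 6 h libraries were all above the 0 h libraries, and the other groups overlapped. An estimated 24 to 63, 40 to 100, 15 to 29 and 12 to 23 fragments stood behind these values in PPA_6h, CTL_6h, PPA_0h and CTL_0h libraries, if the longest transcript was the one counted. The log2 change with time was -0.03 ± 0.16 in PPA mice and 0.41 ± 0.16 in control mice, and the second did not pass either (adjusted p = 0.0826, limma). The log2(FPKM + 1) scale understates changes at such low levels. Ppargc1a met the filter of 1 FPKM in 3 libraries only through PPA_6h replicate 1 and CTL_6h replicates 2 and 3. Its higher level in CTL_6h than in CTL_0h livers is therefore not independent of that filter.

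Pklr encodes the pyruvate kinase of liver and red cells, which works against gluconeogenesis by turning phosphoenolpyruvate into pyruvate. It lies on chr3:89136142-89146784, plus strand. It was at 26.15, 16.8 and 16.3 FPKM in PPA_6h livers, 14.6, 25.4 and 15.7 FPKM in CTL_6h livers, 17.3, 15.4 and 21.3 FPKM in PPA_0h livers and 14.2, 31.0 and 13.4 FPKM in CTL_0h livers. All groups overlapped, and in 3 of them 1 library stood well above the other 2. No comparison passed the test, and the 95% interval of the change with time ran from -0.54 to 0.75 on the log2 scale in PPA mice and from -0.65 to 0.63 in control mice. With 3 libraries a group, changes of Pklr within these intervals, in either direction, were therefore not excluded.

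Pdk4 encodes a pyruvate dehydrogenase kinase that fasting and fatty acids induce and that keeps pyruvate from being oxidised. It lies on chr6:5483351-5496309, minus strand. It was at 2.27, 3.99 and 3.75 FPKM in PPA_6h livers, 10.5, 9.25 and 12.7 FPKM in CTL_6h livers, 6.16, 2.40 and 2.61 FPKM in PPA_0h livers and 6.22, 6.94 and 6.19 FPKM in CTL_0h livers. PPA livers were below control livers at both times with no overlap, by a wide margin at 6 h and narrowly at 0 h, where PPA_0h replicate 2 lay just under the control libraries. At 6 h Pdk4 averaged 3.34 ± 0.929 FPKM in PPA livers and 10.8 ± 1.73 FPKM in control livers (SD, n = 3 each), and it fell to 30.9% of the control mean, a log2 difference of -1.46 ± 0.25 (adjusted p = 0.0481, limma). An estimated 72 to 123 fragments per library stood behind the PPA_6h values, and 306 to 324 behind the CTL_6h values. At 0 h the log2 difference was -0.74 ± 0.25 and did not pass (adjusted p = 0.634, limma). With time, the log2 change was -0.06 ± 0.25 in PPA mice and 0.66 ± 0.25 in control mice, and the second did not pass (adjusted p = 0.0717, limma).

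The call of Pdk4 at 6 h was close to the threshold. Over 24 alternative analyses its log2 difference ran from -1.69 to -0.92. Other filters, robust moderation, fitting only the groups compared and leaving out a 0 h library cannot change this difference, which stayed at -1.46. Its adjusted p ranged from 0.000245 to 0.269 (limma) and was under 0.05 in 8 of the 24. The lowest was with sample weights, a fit that did not converge, and it was 0.00232 with weights fitted gene by gene. The call was lost when any of 9 of the 12 libraries was left out: the adjusted p was 0.269 and 0.141 without PPA_6h replicates 1 and 2, 0.264 and 0.217 without CTL_6h replicates 2 and 4, 0.0514 and 0.0691 without PPA_0h replicates 4 and 5, and 0.0772, 0.0731 and 0.0840 without CTL_0h replicates 1, 3 and 4. CTL_6h replicate 4, the library with 158 FPKM of muscle markers, had the highest Pdk4 value, and without it the log2 difference was -1.35. The part of muscle RNA in the Pdk4 values was not tested further.

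**Figure D2:**
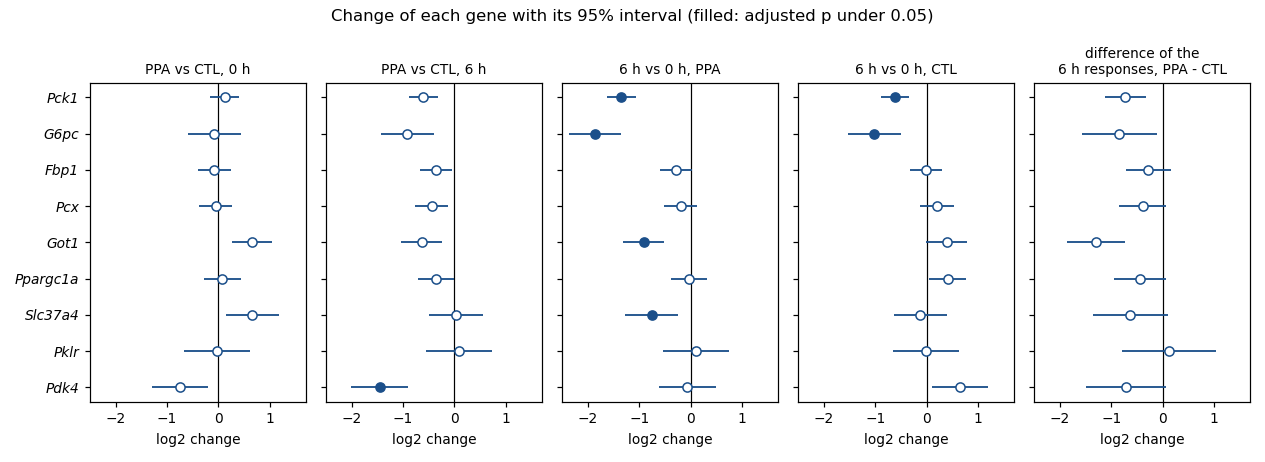
Log2 change of each of the 9 genes, on the log2(FPKM + 1) scale, with its 95% interval from limma, for PPA and control livers compared at each time, for 6 h and 0 h compared in PPA and in control mice, and for the interaction of PPA and time. Filled points have an adjusted p under 0.05: Pdk4 for PPA at 6 h, Pck1, G6pc, Got1 and Slc37a4 for 6 h in PPA mice, and Pck1 and G6pc for 6 h in control mice.

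Counted together, 4 of the 9 genes fell with time in PPA mice (Pck1, G6pc, Got1 and Slc37a4), where 13.2% of all tested genes fell and 28.2% were called in either direction. In control mice 2 of the 9 fell (Pck1 and G6pc), where 11.7% of all genes fell and 26.9% were called in either direction. None of the 9 rose with time, against 15% of all genes in PPA mice and 15.2% in control mice. Without overlap, 4 of the 9 were lower at 6 h and none higher in PPA mice, beside 23% of all genes lower, 24.5% higher and 47.5% in either direction. In control mice 2 of the 9 were lower and 3 higher (Got1, Ppargc1a and Pdk4) without overlap, beside 18.5% of all genes lower, 21.1% higher and 39.6% in either direction. Ppargc1a met the filter on low values only through 6 h libraries, so its count as higher is not independent of that filter. The median log2 change of the 9 was -0.29 in PPA mice, beside 0.00 over all genes, and -0.00 in control mice, beside -0.01 over all genes. Pck1 and G6pc passed in PPA and in control mice, and Got1 in PPA mice, under all 24 alternatives.

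For PPA against control at 6 h, 1 of the 9 genes was called, Pdk4, lower in PPA livers, where 0.0798% of all genes were called lower, 0.0598% higher and 0.14% in either direction. An unadjusted p under 0.05 in limma was reached by 7 of the 9, all lower in PPA livers, against 14.9% of all genes in either direction. Groups did not overlap for 5 of the 9 (Pck1, G6pc, Pcx, Got1 and Pdk4), lower in PPA livers in each, against 8.62% of all genes that were lower, 6.59% that were higher and 15.2% in either direction. The median log2 difference of the 9 at 6 h was -0.45, beside -0.02 over all genes. The 9 markers of hepatocytes around the central vein had a median of -0.45 in the same comparison, with 1 of them called lower in PPA livers, and their summed level was 1919 to 2403 FPKM in PPA_6h and 2154 to 3630.8 FPKM in CTL_6h livers. Their part in the lower levels of the 9 genes was not tested. All genes called for PPA at 6 h numbered 14, and this count hung on single libraries: it was 813 without CTL_6h replicate 3, 383 without PPA_6h replicate 5 and 3 to 7 without any other of the 12. PPA_6h replicate 2 held the lowest value of the 6 h libraries for 4 of the 9 genes and PPA_6h replicate 5 for 3 of them.

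At 0 h, 0 of the 9 genes were called between PPA and control livers by limma, beside 0.0299% of all genes in either direction, 0.0199% higher and 0.00997% lower, and 3 of them had an unadjusted p under 0.05, beside 6.79% of all genes. Those 3 were Got1 and Slc37a4, higher in PPA livers, and Pdk4, lower in PPA livers, and they were also the 3 whose groups did not overlap, beside 6.57% of all genes higher, 7.94% lower and 14.5% in either direction. The median log2 difference of the 9 was -0.02 at 0 h, beside -0.01 over all genes. For the interaction, 0 of the 9 were called by limma, beside 0.00997% of all genes, and 3 (Pck1, G6pc and Got1) had an unadjusted p under 0.05, beside 9.26% of all genes. Interaction estimates were -0.73 ± 0.18 for Pck1 (adjusted p = 0.351, limma) and -0.84 ± 0.33 for G6pc (adjusted p = 0.507, limma), so the larger changes with time in PPA mice were not shown to differ from those in control mice. The differences with PPA at 6 h and at 0 h come from separate libraries, but each shares its libraries with a comparison over time. Their tests are not separate, since all 12 libraries share the same estimate of the spread.

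Ratios within a library do not depend on the library's scaling. Pck1 over Pklr, the opposed reactions of phosphoenolpyruvate, was 29.4, 46.9 and 39.95 in PPA_6h livers, 71.6, 49.0 and 68.1 in CTL_6h livers, 117, 114 and 85.8 in PPA_0h livers and 113, 57.5 and 131 in CTL_0h livers. The 3 PPA_6h livers were the lowest of all, close below CTL_6h replicate 3, and CTL_6h overlapped with CTL_0h through CTL_0h replicate 3. G6pc over Slc37a4, phosphatase over transporter, was 0.704, 0.450 and 1.45 in PPA_6h livers, 1.49, 1.46 and 1.56 in CTL_6h livers, 1.81, 1.34 and 1.91 in PPA_0h livers and 2.90, 3.67 and 2.05 in CTL_0h livers. PPA livers were below control livers at both times without overlap, though PPA_6h replicate 5 lay just below the control libraries.

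Pdk2, the pyruvate dehydrogenase kinase that was more abundant in these livers, fell with time in PPA and in control mice. It averaged 15.6 ± 2.16 FPKM in PPA_6h, 22.8 ± 5.14 FPKM in CTL_6h, 52.9 ± 4.39 FPKM in PPA_0h and 46.6 ± 5.74 FPKM in CTL_0h livers (SD, n = 3 each). The log2 change was -1.70 ± 0.16 in PPA mice (adjusted p = 1.64e-05, limma) and -1.02 ± 0.16 in control mice (adjusted p = 0.000746, limma). Pdk4 over Pdk2 was 0.145, 0.225 and 0.279 in PPA_6h livers, 0.434, 0.542 and 0.468 in CTL_6h livers, 0.106, 0.0473 and 0.0522 in PPA_0h livers and 0.148, 0.131 and 0.138 in CTL_0h livers. The ratio was therefore highest in control livers at 6 h, and PPA livers were below control livers at both times without overlap.

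**Figure D3:**
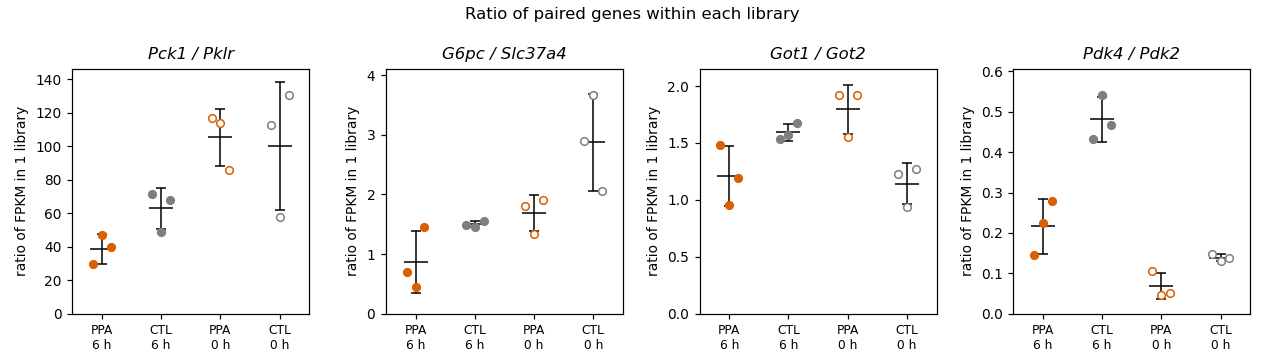
Ratio of FPKM values within each library (points, vertical axes from 0, with the group mean and SD, n = 3) for Pck1 over Pklr, G6pc over Slc37a4, Got1 over Got2 and Pdk4 over Pdk2, with groups from left to right PPA 6 h, CTL 6 h, PPA 0 h and CTL 0 h. Pdk4 over Pdk2 is highest in the 3 CTL_6h livers, at 0.434 to 0.542.

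The wider pathway was read from 6 lists of other genes, 133 in the table and 115 tested, none of which is among the 9. For PPA against control, 0 of the 115 were called by limma at 6 h, where 33 had an unadjusted p under 0.05, 28 of them lower in PPA livers. These 33 are 28.7% of the 115, beside 14.9% of all genes with such a p and 0.14% of all genes called. At 0 h likewise 0 were called and 10 had an unadjusted p under 0.05, which is 8.7% of the 115 and close to the 6.79% of all genes. For the interaction 0 were called and 19 had one, 16.5% of the 115 beside 9.26% of all genes. A change named below in PPA or in control mice alone was therefore not shown to differ from that in the other. At most 2 genes are named per list, comparison and direction, those with the smallest p. A gene named in PPA or in control mice alone may therefore have been called in both. With time, 20 of the 115 rose and 29 fell in PPA mice, so that 42.6% were called, beside 28.2% of all genes (15% higher and 13.2% lower). In control mice 25 rose and 15 fell, so that 34.8% were called, beside 26.9% of all genes (15.2% higher and 11.7% lower). The median log2 change with time was -0.16 in PPA mice and -0.04 in control mice.

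Of the other enzymes and carriers of gluconeogenesis and of the reversible steps of glycolysis, 19 were tested. With time, 0 rose and 5 fell in PPA mice, and 1 rose and 3 fell in control mice, with median log2 changes of -0.21 in PPA mice and -0.00 in control mice. The shares called, 26.3% in PPA mice and 21.1% in control mice, were near or below those of all genes, 28.2% and 26.9%. The mitochondrial oxoglutarate carrier Slc25a11, part of the malate and aspartate shuttle, fell in both, by 0.74 ± 0.10 in PPA mice and by 0.43 ± 0.10 in control mice on the log2 scale (adjusted p = 0.000277 and 0.00823, limma). So did the carrier Slc25a13, by 0.76 ± 0.14 in PPA mice and by 0.49 ± 0.14 in control mice (adjusted p = 0.00177 and 0.022, limma). The dicarboxylate carrier Slc25a10 fell in PPA mice by 0.84 ± 0.15 (adjusted p = 0.00132, limma), and in control mice its log2 change was -0.27 ± 0.15 and did not pass (adjusted p = 0.199, limma). Aldoa, an aldolase more typical of muscle than of liver, rose in control mice by 0.71 ± 0.17 (adjusted p = 0.00979, limma), and in PPA mice its log2 change was 0.46 ± 0.17 (adjusted p = 0.0635, limma). It was at 115 to 194 FPKM in PPA_6h, 154 to 171 FPKM in CTL_6h, 107 to 129.9 FPKM in PPA_0h and 91.6 to 107 FPKM in CTL_0h livers. The count in PPA mice was 3 without PPA_0h replicate 4 or 5, and that in control mice was 2 without CTL_0h replicate 3 or 4.

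Among 16 tested genes that supply substrates, 1 rose and 5 fell with time in PPA mice, and 3 rose and 1 fell in control mice. These are 37.5% of the list in PPA mice, beside 28.2% of all genes, and 25% in control mice, beside 26.9% of all genes. Slc38a2, an amino acid transporter of the plasma membrane, rose by 0.82 ± 0.18 in PPA mice and by 1.35 ± 0.18 in control mice on the log2 scale (adjusted p = 0.00524 and 0.000206, limma). Sds, the serine dehydratase of hepatocytes near the portal vein, was at 442 ± 102 FPKM in PPA_6h, 727 ± 181 FPKM in CTL_6h, 472 ± 56.7 FPKM in PPA_0h and 381 ± 94.3 FPKM in CTL_0h livers (SD, n = 3 each). It rose in control mice by 0.93 ± 0.23 (adjusted p = 0.00975, limma), while in PPA mice its log2 change was -0.11 ± 0.23. Aqp9, the glycerol channel of hepatocytes, fell by 0.30 ± 0.10 in PPA mice and by 0.52 ± 0.10 in control mice (adjusted p = 0.0319 and 0.00189, limma). Slc38a4, an amino acid transporter, and Prodh, the proline dehydrogenase, fell in PPA mice by 0.71 ± 0.14 and 0.82 ± 0.19 (adjusted p = 0.00289 and 0.00641, limma). In control mice their log2 changes were -0.25 ± 0.14 and -0.29 ± 0.19 and did not pass (adjusted p = 0.215 and 0.279, limma). The count called in PPA mice was 3 in all without PPA_0h replicate 2 or 5.

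The regulators moved in both directions: of 35 tested, 9 rose and 7 fell with time in PPA mice, and 12 rose and 5 fell in control mice. These are 45.7% of the list in PPA mice, beside 28.2% of all genes, and 48.6% in control mice, beside 26.9%. Foxo3, a forkhead factor restrained by insulin signalling, rose by 2.41 ± 0.25 in PPA mice and by 3.40 ± 0.25 in control mice on the log2 scale (adjusted p = 2.9e-05 and 1.31e-06, limma). Trib1, a pseudokinase that lowers the level of C/EBP alpha, rose by 2.96 ± 0.13 in PPA mice and by 3.34 ± 0.13 in control mice (adjusted p = 1.36e-08 and 4.55e-09, limma). Klf15, a fasting-induced factor that promotes amino acid use for gluconeogenesis, fell by 1.72 ± 0.20 in PPA mice and by 1.38 ± 0.20 in control mice (adjusted p = 7.97e-05 and 0.00037, limma). Ppara, the receptor that drives fatty acid oxidation genes and is a known activator of Pdk4, fell by 1.46 ± 0.18 in PPA mice and by 1.53 ± 0.18 in control mice (adjusted p = 0.000112 and 7.51e-05, limma).

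Of 14 tested genes of glucose uptake and glycolysis, 6 rose and 1 fell with time in PPA mice, beside 15% of all genes that rose and 13.2% that fell. In control mice 6 rose and 1 fell, beside 15.2% of all genes that rose and 11.7% that fell. The list had median log2 changes of 0.33 in PPA mice and 0.24 in control mice, beside 0.00 and -0.01 over all genes. Pfkfb3, an isoform of the enzyme that makes the activator of phosphofructokinase, rose by 1.26 ± 0.20 in PPA mice and by 1.25 ± 0.20 in control mice (adjusted p = 0.000612 and 0.000623, limma). Its liver isoform Pfkfb1 fell by 1.40 ± 0.18 in PPA mice and by 1.01 ± 0.18 in control mice (adjusted p = 0.000152 and 0.00146, limma). Slc2a1, the glucose transporter of most cells other than hepatocytes, rose in control mice by 1.84 ± 0.24 (adjusted p = 0.000197, limma). Mlx, the partner of the glucose-sensing factor ChREBP, rose in PPA mice by 0.74 ± 0.13 (adjusted p = 0.00139, limma). Of the neutrophil markers, 3 were tested and all 3 rose with time in PPA and in control mice, and the part of incoming cells in these changes was not tested.

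Of 15 tested genes that set the fate of pyruvate, 1 rose and 6 fell with time in PPA mice, and 1 rose and 3 fell in control mice. The share called was 46.7% in PPA mice, beside 28.2% of all genes, and in control mice it was 26.7%, at the 26.9% of all genes. Pdhb, a subunit of pyruvate dehydrogenase, was the one that rose, by 0.57 ± 0.11 in PPA mice and by 0.46 ± 0.11 in control mice (adjusted p = 0.00177 and 0.00643, limma). Pdp2, a phosphatase that activates pyruvate dehydrogenase, fell in PPA mice by 1.23 ± 0.21 (adjusted p = 0.00125, limma), and Pdk1, another of its kinases, fell in control mice by 0.55 ± 0.13 (adjusted p = 0.00819, limma). The count called in PPA mice was 4 in all without PPA_6h replicate 1.

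Of 16 tested genes of glycogen turnover, which competes for the same glucose-6-phosphate, 3 rose and 5 fell with time in PPA mice, and 2 rose and 2 fell in control mice. The share called was 50% in PPA mice, beside 28.2% of all genes, and in control mice it was 25%, near the 26.9% of all genes. Pgm1, a phosphoglucomutase, rose by 0.93 ± 0.25 in PPA mice and by 1.25 ± 0.25 in control mice, and Ugp2, which makes UDP-glucose, rose by 0.74 ± 0.17 in PPA mice and by 0.62 ± 0.17 in control mice (adjusted p = 0.0137, 0.00277, 0.00747 and 0.0196, limma). The glycogen-targeting phosphatase subunits Ppp1r3b and Ppp1r3c fell in control mice by 1.54 ± 0.36 and 1.38 ± 0.28 (adjusted p = 0.0082 and 0.00352, limma). Gys2, the liver glycogen synthase, and Gaa, the lysosomal glucosidase of glycogen, fell in PPA mice by 0.65 ± 0.18 and 0.41 ± 0.11 (adjusted p = 0.0175 and 0.015, limma). The count called in PPA mice was 2 in all without PPA_6h replicate 1, 3 without PPA_0h replicate 5, and 4 without PPA_0h replicate 2 or PPA_6h replicate 2.

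**Figure D4:**
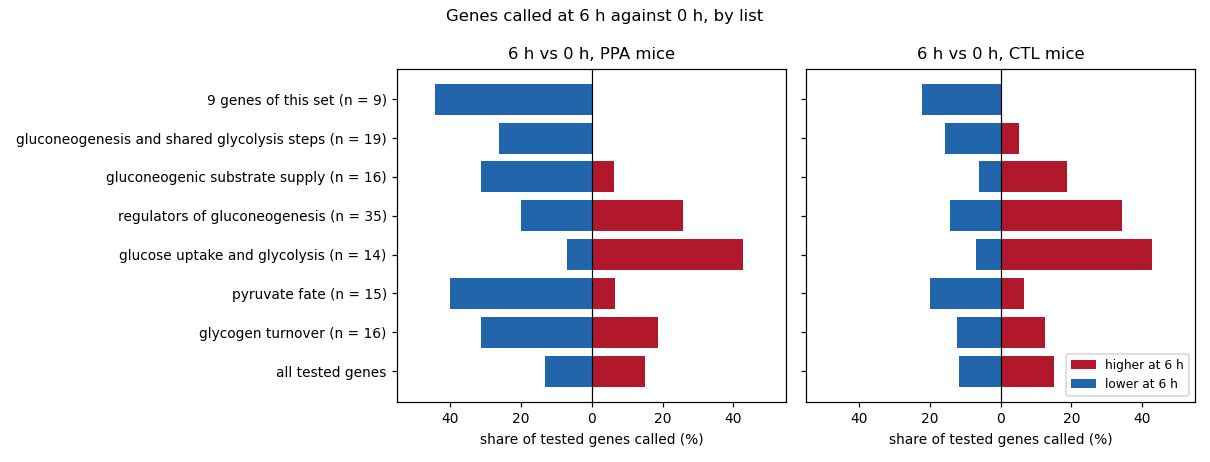
Share of tested genes, in percent, with an adjusted p under 0.05 that were higher (red, right of 0) or lower (blue, left of 0) at 6 h than at 0 h, in PPA mice (left) and control mice (right), for the 9 genes, the 6 lists of other pathway genes and all tested genes. Among the 9 genes 4 fell in PPA mice and 2 in control mice and none rose, while the lists of regulators and of glycolysis hold more that rose than fell.

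The tested genes whose log2(FPKM + 1) followed each profile most closely over the 12 libraries were looked up as a description, and the 12 values share the groups, the depth difference between times and the scaling of each library. For Pck1 they were Cyp2c37, a cytochrome P450 of hepatocytes around the central vein, Dapk1 and R3hdm2 (Pearson r of 0.976, 0.973 and 0.972). For G6pc they were Decr2, Cyp4a12b and Slc25a11 (0.966, 0.954 and 0.952). The nearest of Pdk4 were Ppp3ca, Uqcrc2 and Nampt (0.894, 0.889 and 0.878), and those of Pklr were Tcf3, Dgcr8 and Elmo2 (0.871, 0.822 and 0.809). Ppargc1a had no profile closer than Aspg, Endov and Mbd6 (0.792, 0.786 and 0.781).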

How the data were processed

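Per the labels' protocols, Trizol extraction of liver was followed by poly(A) selection on beads and a ThruPLEX library kit. The values analysed are FPKM per gene, as the authors deposited them in 1 table of 24340 gene entries and 12 libraries. The submitters' processing notes name HISAT2 2.1.0, Cufflinks, SAMtools 0.1.18-r580 and Cuffdiff 2.1.1 with mm10. What each tool did, with which settings and annotation, is not given in the sources used here. Since FPKM divides by a library total, large changes of abundant genes shift every other value.

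Groups came from the titles. The 9 genes and all lists were chosen with earlier results of these data known. Left out were 1308 short RNA genes, 27 symbols turned into date serials, and Alb and Apoe, listed at 0 in whole groups. Genes that reached an FPKM of 1 in 3 or more libraries were tested with limma 3.58.1 in R 4.3.3 on log2(FPKM + 1), in a group-means model of all 12 libraries with trended empirical Bayes moderation and Benjamini-Hochberg adjustment over 10031 genes, at 0.05. No count model was used, since the values are not counts. Named pathway genes are, for each list, comparison and direction, up to 2 called genes with the smallest p, and 3 nearest profiles for each of Pck1, G6pc, Ppargc1a, Pklr and Pdk4. Got2 and Pdk2 are also given as partners of Got1 and Pdk4. The fit was tested on simulated data. Alternatives covered pseudocount, filter, scaling, weights, moderation, a replicate block, the groups fitted and each library left out. Depth was estimated from the steps of low values, so no exact counting error is known. Gene positions are from GENCODE vM21 (GRCm38, the assembly of mm10). Python 3.11.15, pandas 2.3.3 and matplotlib 3.10.9 made the tables and plots.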

Additional observations from a re-analysis of the deposited data

Results flagged for a closer look

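The levels of Got1 ran in opposite directions with time: every PPA_6h library was below every PPA_0h library, while every CTL_6h library was above every CTL_0h library. Of all 10031 tested genes, 19 (0.189%) had this pattern without overlap. The difference between the 2 changes was -1.297 on the log2 scale, the rank of its p was 10 among all genes, and it did not pass after adjustment (adjusted p = 0.251, limma). Seen the other way, PPA livers were below control livers at 6 h and above them at 0 h without overlap, as in 49 genes (0.488%). Groups of 3 libraries are too small for a test of single outlying libraries.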

How the results depend on the processing

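Pck1 and G6pc with time in PPA and in control mice, and Got1 with time in PPA mice, kept their call in all 24 alternatives. For PPA at 6 h the count of the 9 genes called was 1, and it was 0 with a pseudocount of 0.1, with no filter, with scaling by the median of ratios, with robust moderation, with the short RNA and failed entries kept and with only the groups compared. It was 6 with sample weights and 6 with weights fitted gene by gene, a setting chosen after seeing the data because the first had not converged, and 0 to 2 with 1 library left out. Sample weights gave CTL_6h replicate 2 a weight of 6.30 and CTL_6h replicate 3 a weight of 0.318, and all genes called for PPA at 6 h numbered 3635. With these weights the count with time in control mice was 5 and the count for the interaction was 2. Over all alternatives, all genes called numbered 1828 to 4261 with time in control mice and 0 to 522 for the interaction. With 1 library left out, the count with time was 3 to 4 in PPA mice and 2 to 3 in control mice.

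Some changes that were never called turned direction; apart from what is built into each setting, the cause was not tested. Under quantile normalization the PPA difference at 0 h was 0.0125 for Fbp1 and 0.0471 for Pcx. For Ppargc1a with time in PPA mice the change was 0.11 with sample weights and 0.0801 with weights gene by gene. With 1 library left out the log2 values ran, for PPA at 0 h, from -0.22 to 0.13 for G6pc, -0.18 to 0.026 for Pcx, -0.0105 to 0.15 for Ppargc1a and -0.23 to 0.35 for Pklr. For PPA at 6 h they ran from -0.20 to 0.33 for Slc37a4 and -0.12 to 0.33 for Pklr. With time in PPA mice they ran from -0.16 to 0.0773 for Ppargc1a, -0.10 to 0.23 for Pklr and -0.25 to 0.28 for Pdk4. With time in control mice they ran from -0.10 to 0.0802 for Fbp1, -0.24 to 0.0834 for Slc37a4 and -0.25 to 0.36 for Pklr, and for the interaction from -0.25 to 0.36 for Pklr.

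Libraries of different groups share replicate numbers, but nothing says that a number marks a shared animal or day, and same-numbered libraries did not deviate together (r of -0.28 to 0.09 over 9 pairs, median -0.00). With the replicate block, 0 of the 9 genes were called for PPA at 6 h and Slc37a4 lost its call in PPA mice (adjusted p = 0.0627, limma). Turned under this block were Pklr for PPA at 0 h (0.39), with time in PPA mice (-0.00602) and in control mice (0.10) and for the interaction (-0.11), Fbp1 with time in control mice (0.00088) and Pdk4 with time in PPA mice (0.0088). Over all alternatives, the called genes of the lists for PPA at 6 h numbered 0 to 10 for gluconeogenesis, 0 to 9 for substrate supply, 0 to 21 for regulators, 0 to 6 for glycolysis, 0 to 9 for pyruvate fate and 0 to 6 for glycogen, beside 0 in each as reported. All genes called for PPA at 6 h numbered 0 to 3635 over the same alternatives, beside 14 as reported. Fragment numbers, estimated for Ppargc1a and Pdk4 alone, limit both.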
